A study of Mus musculus with 12 samples.

Results

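The transcripts of 10 basement membrane genes were examined in mouse liver: the type IV collagen chains Col4a1 and Col4a2, the laminin chains Lama2, Lama4, Lama5, Lamb1 and Lamc1, the nidogens Nid1 and Nid2, and Hspg2, which encodes perlecan. They were taken by name, as structural parts of the basement membrane, from a table of 21936 genes, and each of the 10 names stood on 1 entry. The livers were those of male C57BL/6 mice (C57BL/6J in the study's methods), bought at 6 weeks of age and kept for 1 week, and all had been injected in the peritoneum with carbon tetrachloride (CCl4), a hepatotoxin that leads to fibrosis, at 1 mL/kg and 2 doses per week over 8 weeks. The liver fibrosis group (LFG) was killed at the end of that course. For another 4 weeks, with 2 tail vein injections per week, mice of the regression group (REG) were given saline (200 µL, phosphate buffered) and mice of the hADMSCs-Exo group the same volume with 250 µg of protein of exosomes, vesicles shed by cultured human adipose mesenchymal stem cells. Each group had 3 libraries, and no liver without CCl4 was analysed here. LFG mice were 4 weeks younger than the others when killed, and for LFG the end of CCl4, age and treatment cannot be told apart. The sources used here do not say whether each library came from 1 mouse, so p-values measure the spread between these libraries.

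Basement membranes are thin sheets of matrix on which epithelia and endothelia rest, built from a laminin polymer and a collagen IV network joined by nidogens and perlecan. Each laminin is a trimer of an alpha, a beta and a gamma chain, and a collagen IV molecule of the common kind holds Col4a1 and Col4a2 chains wound together. The normal hepatic sinusoid lacks a continuous basement membrane, and laying down of collagen IV and laminin along it, called capillarization, is a known feature of liver fibrosis, in which stellate and endothelial cells make much of this matrix.

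Total counts per library ran from 13837445 to 19840917. Library LFG 3 stood apart: across genes its Pearson's r was 0.834 with LFG 1 and 0.874 with LFG 2, against 0.896 to 0.94 with the libraries of the other groups. The 10 basement membrane genes all lay lower in LFG 3, with differences in log2 CPM (counts relative to a TMM-scaled library size, on a log2 scale) from the mean of LFG 1 and LFG 2 of -5.17 to -1.73. The median of that difference was -2.93 for the 10 genes and -0.01 for 12760 genes. Whether the label of this library is right was not tested, and every value against LFG from all libraries rests on it. The members' fold changes against LFG are therefore given with and without LFG 3. The 8 hepatocyte markers checked, Alb and Apoa1 among them, had counts in every library. Their summed level was 87300 to 151000 CPM in LFG, 172000 to 181000 in REG and 127000 to 144000 in hADMSCs-Exo, so that REG lay above both other groups, and in LFG 3 their differences from LFG 1 and LFG 2 ran from -1.57 to 2.0 with a median of 0.64. In bulk RNA, fewer cells of a type and less RNA per cell cannot be told apart.

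The promoters of 3 of these genes are shown, because these 3 differed in how they varied across the groups: Lamb1 was lower in hADMSCs-Exo than in REG in every library, Lama5 was the one member with a positive fold change there, and Nid1 had the widest range over the 9 libraries. Each stretch was taken from a RefSeq promoter window (GRCm38.p6), ends at the base before the start of the gene as given with its coordinates here, and is written 5′ to 3′ on the gene's strand, with the letters of a GC box (GGGCGG), or of the CCAAT box, in capitals where they were found on either strand. On the other strand the first reads CCGCCC, while the second reads ATTGG.

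Lamb1, chr12:31265043-31265233, plus strand: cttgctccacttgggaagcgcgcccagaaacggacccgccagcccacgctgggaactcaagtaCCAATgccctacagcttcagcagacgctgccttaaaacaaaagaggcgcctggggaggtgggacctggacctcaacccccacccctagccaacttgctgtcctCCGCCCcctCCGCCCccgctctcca

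Lama5, chr2:180225860-180226109, minus strand: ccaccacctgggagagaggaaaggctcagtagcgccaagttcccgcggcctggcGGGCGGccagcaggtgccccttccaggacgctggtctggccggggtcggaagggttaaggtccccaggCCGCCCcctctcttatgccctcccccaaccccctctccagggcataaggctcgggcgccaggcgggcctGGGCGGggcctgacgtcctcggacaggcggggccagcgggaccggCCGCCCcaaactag

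Nid1, chr13:13437352-13437550, plus strand: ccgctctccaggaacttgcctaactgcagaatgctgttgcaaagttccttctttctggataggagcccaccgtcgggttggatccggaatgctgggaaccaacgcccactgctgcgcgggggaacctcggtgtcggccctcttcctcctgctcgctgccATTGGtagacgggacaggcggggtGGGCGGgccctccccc

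The Lamb1 stretch held 2 GC boxes and 1 CCAAT box, the Lama5 stretch 4 GC boxes and no CCAAT box, and the Nid1 stretch 1 of each. A TATA box (TATAAA) was not found in these stretches, and neither was an AP-1 site (TGANTCA). Among 32851 promoter windows of the same RefSeq table, which also hold bases after the start, 35.7% had a GC box, 37.4% a CCAAT box, 13.6% a TATA box and 7.81% an AP-1 site by the same letters on either strand. The printed motifs are thus common ones, and a match of letters does not show that a factor binds. A window was found for 7 of the 10 genes.

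Levels can be compared between genes only per length, and the deposited FPKM (counts divided by the gene's length and the library's total) serve for that. By median FPKM, Col4a1 was the highest of the 10 genes in each group, at 15.8 in LFG, 4.07 in REG and 2.77 in hADMSCs-Exo. In REG the order continued with Col4a2 (3.25), Lamc1 (1.77), Nid1 (1.65), Nid2 (1.06), Hspg2 (1.04), Lamb1 (0.894), Lama5 (0.407), Lama4 (0.277) and Lama2 (0.165). Between neighbours in this order, the 3 libraries of the one gene lay fully above those of the next for Col4a2 over Lamc1, Nid1 over Nid2, Lamb1 over Lama5 and Lama4 over Lama2, and the other neighbours overlapped. In hADMSCs-Exo this held for Col4a2 over Nid2 and Lama4 over Lama2 only, and in LFG every pair of neighbours overlapped. The alpha chains were thus listed at lower levels than Lamc1, the gamma chain they assemble with.

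Summed over the 10 genes, FPKM was 101, 51.2 and 4.27 in LFG 1, 2 and 3, then 21.7, 14.2 and 12 in REG and 11.7, 14.3 and 7.16 in hADMSCs-Exo. LFG 1 and LFG 2 were the highest of the 9 libraries and LFG 3 the lowest, and REG and hADMSCs-Exo overlapped. LFG 1 held the highest log2 CPM of 7 genes (Col4a1, Col4a2, Lama5, Lamb1, Lamc1, Nid1 and Nid2), LFG 2 that of Lama2 and Hspg2, and REG 1 that of Lama4.

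**Figure D1:**
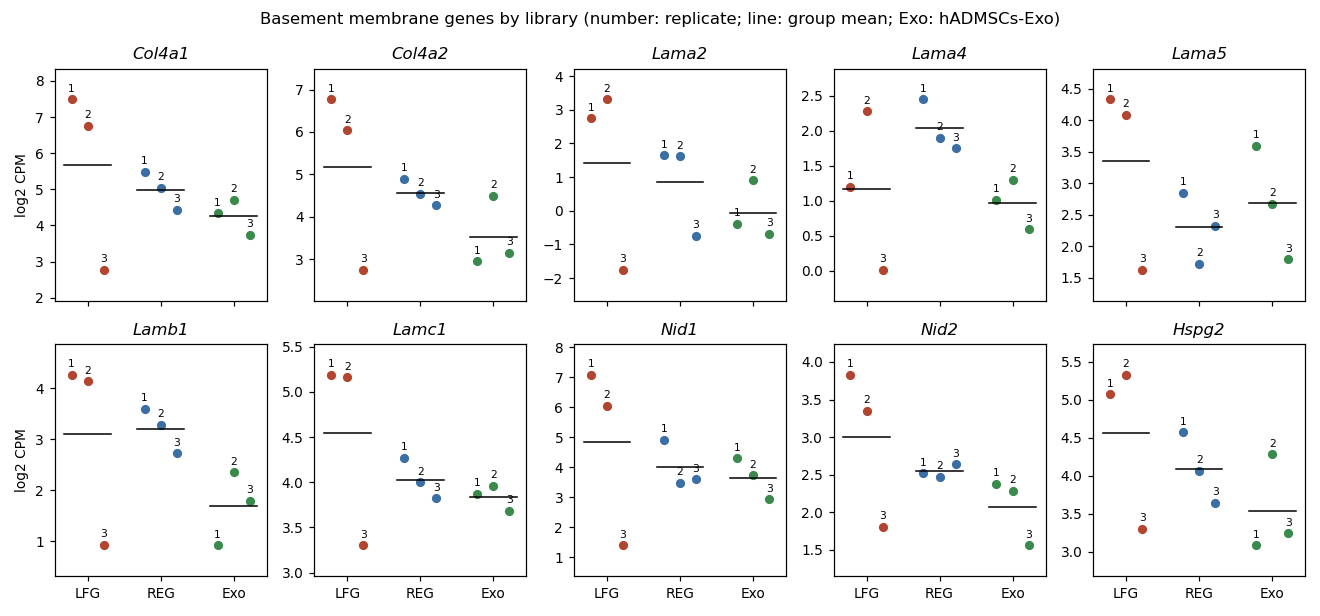
Log2 CPM (TMM-scaled, prior count 2) of each of the 10 basement membrane genes in the 9 libraries, with 1 panel per gene and its own vertical axis; points are libraries with their replicate number, and black lines are group means of 3 libraries. LFG 3 is the lowest library in 7 panels and below LFG 1 and LFG 2 in all 10, and the REG and hADMSCs-Exo points are apart for Lama4, Lamb1 and Nid2.

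Col4a1 (ENSMUSG00000031502, GRCm38 chromosome 8, 11198423 to 11312826, minus strand) had a log2 CPM of 7.49, 6.76 and 2.77 in LFG, 5.48, 5.05 and 4.44 in REG and 4.34, 4.71 and 3.74 in hADMSCs-Exo. Its partner Col4a2 (ENSMUSG00000031503, chromosome 8, 11312805 to 11449287, plus strand) had 6.77, 6.04 and 2.75, then 4.89, 4.55 and 4.27, then 2.95, 4.49 and 3.15. The pair lie head to head, with the first 22 bases of each shared on opposite strands. hADMSCs-Exo 2 reached into the REG range for both genes, while hADMSCs-Exo 3 lay below it for both. Against REG the log2 fold change in hADMSCs-Exo was -0.74 for Col4a1 (SE 0.32, edgeR adjusted p = 0.493) and -0.90 for Col4a2 (SE 0.40, edgeR adjusted p = 0.499), so neither passed. Against LFG, hADMSCs-Exo had -2.32 for Col4a1 (SE 0.98, edgeR adjusted p = 0.805) and -2.25 for Col4a2 (SE 0.93, edgeR adjusted p = 0.805). Leaving out LFG 3 cut the error, and Col4a1 then was lower by a log2 fold change of -2.85 (SE 0.32, edgeR adjusted p = 0.0143) and Col4a2 by -2.75 (SE 0.46, edgeR adjusted p = 0.0259), the latter a call that was lost with the replicate number as a block. In REG against LFG, Col4a1 had -1.55 (SE 0.95, edgeR adjusted p = 0.562) and Col4a2 -1.32 (SE 0.82, edgeR adjusted p = 0.569) with all libraries. Without LFG 3 both passed, at -2.08 (SE 0.33, edgeR adjusted p = 0.0154) and -1.82 (SE 0.26, edgeR adjusted p = 0.0146). Over all settings tried, the smallest falls in this comparison were -0.78 for Col4a1 and -0.57 for Col4a2.

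The ratio of the pair within a library needs no scaling between libraries. Per length, Col4a1 over Col4a2 was 1.45, 1.46 and 0.899 in LFG, 1.34, 1.25 and 0.997 in REG and 2.34, 1.04 and 1.34 in hADMSCs-Exo and overlapped between all groups. Collagen IV made up 55.0, 51.9 and 36.0% of the summed FPKM of the 10 genes in LFG, 46.9, 51.7 and 45.9% in REG and 33.8, 48.4 and 40.4% in hADMSCs-Exo. The share was lowest in hADMSCs-Exo 1 and in LFG 3, and the groups overlapped.

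Alpha chains give laminins their receptor binding and their tissue pattern. Of those among the members, Lama5 was the highest per length in every library but REG 2, where Lama4 was. Lama5 (ENSMUSG00000015647, chromosome 2, 180176373 to 180225859, minus strand), the chain of the widespread epithelial and endothelial laminins, had a log2 CPM of 4.33, 4.08 and 1.62 in LFG, 2.85, 1.72 and 2.32 in REG and 3.59, 2.67 and 1.79 in hADMSCs-Exo. REG and hADMSCs-Exo overlapped, and hADMSCs-Exo 1 was the highest of the 6. Lama5 was the one gene of the 10 with a positive fold change in hADMSCs-Exo against REG, 0.50 (SE 0.47, edgeR adjusted p = 0.734). Without hADMSCs-Exo 1 it was -0.08, so its sign rested on that library. Against LFG the value was -0.90 (SE 0.74, edgeR adjusted p = 0.882) in hADMSCs-Exo and -1.38 (SE 0.67, edgeR adjusted p = 0.484) in REG. Without LFG 3 it was -1.35 (SE 0.44, edgeR adjusted p = 0.104) in hADMSCs-Exo, short of the threshold, and -1.83 (SE 0.31, edgeR adjusted p = 0.0164) in REG.

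Lama4 (ENSMUSG00000019846, chromosome 10, 38965515 to 39110188, plus strand), the alpha chain of vessel walls and mesenchymal cells, varied in another way. Its log2 CPM was 1.20, 2.28 and 0.01 in LFG, 2.45, 1.90 and 1.75 in REG and 1.01, 1.3 and 0.59 in hADMSCs-Exo. All 3 hADMSCs-Exo libraries lay below all 3 REG libraries, and LFG 1, the highest library for 7 other genes, was below every REG library here. The log2 fold change in hADMSCs-Exo against REG was -1.12 (SE 0.33, edgeR adjusted p = 0.407), not past the adjusted threshold. Against LFG it was -0.50 (SE 0.63, edgeR adjusted p = 0.923) in hADMSCs-Exo, or -0.86 (SE 0.45, edgeR adjusted p = 0.246) without LFG 3, and turned to 0.25 without LFG 2. REG had 0.65 against LFG (SE 0.60, edgeR adjusted p = 0.697), or 0.28 (SE 0.42, edgeR adjusted p = 0.648) without LFG 3, the only positive values of the 10 genes in that comparison. Counts were low, 10 to 87 per library.

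Lama2 (ENSMUSG00000019899, chromosome 10, 26980036 to 27619758, minus strand), the chain best known from muscle and in liver from mesenchymal cells, had the lowest level per length in each group but LFG, where Lama4 was lower by its median. Its log2 CPM was 2.74, 3.31 and -1.76 in LFG, 1.65, 1.62 and -0.75 in REG and -0.38, 0.90 and -0.69 in hADMSCs-Exo, on 2 to 175 counts. REG 3 lay below all 3 hADMSCs-Exo libraries and REG 1 and REG 2 above them, so the groups overlapped. The log2 fold change against REG was -1.14 (SE 0.72, edgeR adjusted p = 0.619). Against LFG it was -2.52 in hADMSCs-Exo (SE 1.15, edgeR adjusted p = 0.805) and -1.35 in REG (SE 1.15, edgeR adjusted p = 0.669). Leaving out LFG 3 gave -3.05 (SE 0.51, edgeR adjusted p = 0.0259) in hADMSCs-Exo, which passed, and -1.88 (SE 0.62, edgeR adjusted p = 0.0711) in REG, which did not.

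The mix of the members' alpha chains within a library was set against the groups. Lama1 and Lama3, which also had enough counts to be tested, were left out of it. Lama4 had 10 to 87 counts per library and Lama2 had 2 to 175. Of the FPKM summed over Lama2, Lama4 and Lama5, Lama4 took 35.6, 39.6 and 37.0% in REG, 12.6, 22.9 and 26.2% in hADMSCs-Exo and 7.79, 16 and 21.5% in LFG. Every REG library was above every library of the other groups, LFG 3 included. Lama5 took 49.8, 36.9 and 59.1% in REG against 84.3, 64.7 and 66.9% in hADMSCs-Exo and 75.2, 60.1 and 75.3% in LFG, again without overlap. The mean log2 ratio of Lama4 to Lama5 per length was -0.35 in REG (SD 0.41, n = 3), -1.86 in hADMSCs-Exo (SD 0.76, n = 3) and -2.33 in LFG (SD 0.82, n = 3). It was lower in hADMSCs-Exo than in REG by a difference of -1.51 and higher in REG than in LFG by 1.98, each at p = 0.1, the smallest p that a two-sided exact permutation test of 3 against 3 libraries can give, and 0.6 after adjustment over the 24 tests of 8 ratios in 3 comparisons. No adjusted p of these 24 tests was below 0.6.

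**Figure D2:**
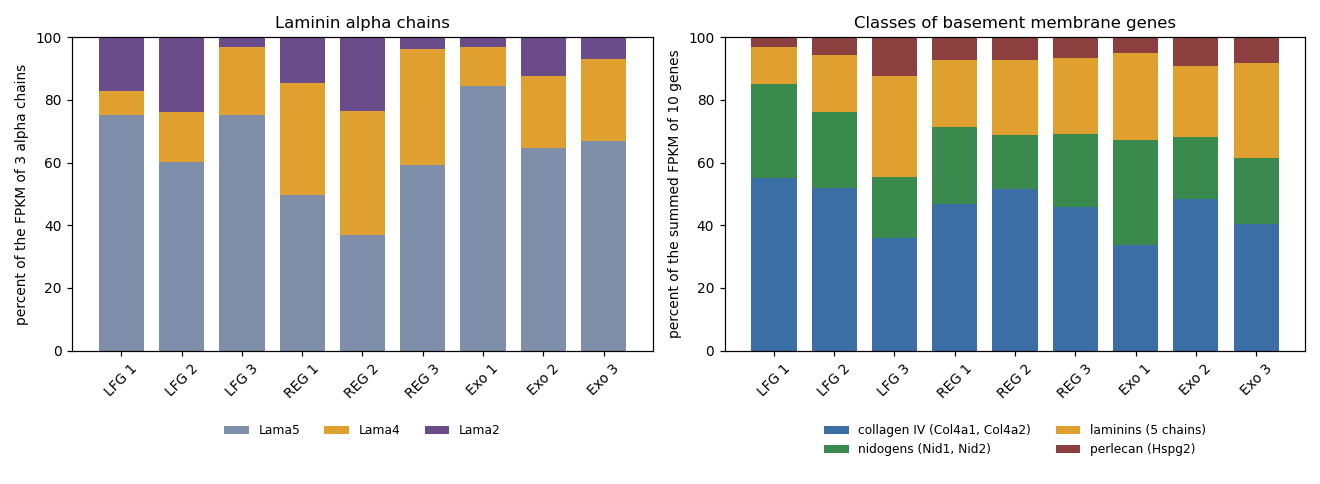
Stacked bars per library of the share (percent of FPKM) of Lama5, Lama4 and Lama2 among these 3 laminin alpha chains (left) and of collagen IV, nidogens, laminins and perlecan among the 10 genes (right); Exo stands for hADMSCs-Exo. The Lama4 part is 35.6 to 39.6% in the 3 REG bars and at most 26.2% in the others, while the class shares on the right overlap between the groups.

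Lamb1 (ENSMUSG00000002900, chromosome 12, 31265234 to 31329644, plus strand), a beta chain that pairs with each of these alpha chains, whose promoter is printed above, had a log2 CPM of 4.26, 4.13 and 0.93 in LFG, 3.59, 3.28 and 2.72 in REG and 0.92, 2.35 and 1.79 in hADMSCs-Exo. All hADMSCs-Exo libraries lay below all REG libraries, with hADMSCs-Exo 1 the lowest of the 9. The log2 fold change against REG was -1.47 (SE 0.39, edgeR adjusted p = 0.394), the lowest of the 10 genes, and DESeq2 put it past the threshold (log2 fold change -1.48, SE 0.39, adjusted p = 0.0292). Against LFG the value was -1.94 (SE 0.83, edgeR adjusted p = 0.805) in hADMSCs-Exo, and -2.42 (SE 0.38, edgeR adjusted p = 0.0226) without LFG 3. REG against LFG had -0.44 (SE 0.74, edgeR adjusted p = 0.838), and -0.92 (SE 0.26, edgeR adjusted p = 0.0505) without LFG 3.

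Lamc1 (ENSMUSG00000026478, chromosome 1, 153218922 to 153332786, minus strand), the gamma chain shared by most laminins, had the smallest fold change of the laminin chains between REG and hADMSCs-Exo. Its log2 CPM was 5.19, 5.16 and 3.30 in LFG, 4.27, 4.0 and 3.82 in REG and 3.87, 3.96 and 3.68 in hADMSCs-Exo. The last 2 groups overlapped, at a log2 fold change of -0.21 (SE 0.18, edgeR adjusted p = 0.71). Against LFG, Lamc1 had -0.96 in hADMSCs-Exo (SE 0.48, edgeR adjusted p = 0.806) and -0.72 in REG (SE 0.47, edgeR adjusted p = 0.586), and without LFG 3 these were -1.33 (SE 0.17, edgeR adjusted p = 0.0182) and -1.09 (SE 0.18, edgeR adjusted p = 0.0159). With the replicate block as well, the call in REG was lost, since its fold change of -0.99 fell short of the limit.

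Set against its gamma partner in the same library, Lamb1 per length was 0.435, 0.408 and 0.153 of Lamc1 in LFG, 0.516, 0.505 and 0.385 in REG and 0.102, 0.27 and 0.22 in hADMSCs-Exo. The hADMSCs-Exo libraries lay below the REG libraries, with a mean log2 ratio of -2.45 (SD 0.74, n = 3) against -1.11 (SD 0.23, n = 3) and a difference of -1.35 (exact permutation test, p = 0.1, adjusted 0.6). LFG 1 and LFG 2 fell in the range of REG, and LFG 3 in that of hADMSCs-Exo. Lamb1 over Lamb2, the other common beta chain, was likewise lower in every hADMSCs-Exo library than in every REG library, by -0.95 on the log2 scale (exact permutation test, p = 0.1, adjusted 0.6).

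Nid1 (ENSMUSG00000005397, chromosome 13, 13437551 to 13512269, plus strand), which links laminin to collagen IV, had the widest range of the 10 genes. Its log2 CPM was 7.08, 6.04 and 1.39 in LFG, 4.92, 3.48 and 3.60 in REG and 4.30, 3.73 and 2.93 in hADMSCs-Exo. REG 1 stood above the other REG libraries, and the group overlapped with hADMSCs-Exo. The log2 fold change against REG was -0.41 (SE 0.46, edgeR adjusted p = 0.784) and turned to 0.23 without REG 1. Against LFG it was -2.36 (SE 1.12, edgeR adjusted p = 0.805) in hADMSCs-Exo and -1.92 (SE 1.12, edgeR adjusted p = 0.548) in REG. Without LFG 3 these were -2.90 (SE 0.43, edgeR adjusted p = 0.0217) and -2.47 (SE 0.47, edgeR adjusted p = 0.02).

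Nid2 (ENSMUSG00000021806, chromosome 14, 19751265 to 19811787, plus strand), the second nidogen, had a narrower range over the 9 libraries than Nid1. It shares 437 bases with Rtraf on the other strand, and whether the counting used strand is not stated in the sources used here, so some of its counts could be those of Rtraf. Its log2 CPM was 3.83, 3.35 and 1.81 in LFG, 2.52, 2.47 and 2.64 in REG and 2.38, 2.29 and 1.56 in hADMSCs-Exo. The last 2 groups did not overlap, but by a gap of less than the spread within hADMSCs-Exo, at a log2 fold change of -0.44 (SE 0.27, edgeR adjusted p = 0.607). Against LFG, Nid2 had -1.14 (SE 0.54, edgeR adjusted p = 0.805) in hADMSCs-Exo and -0.68 (SE 0.48, edgeR adjusted p = 0.616) in REG, or -1.51 (SE 0.31, edgeR adjusted p = 0.0359) and -1.04 (SE 0.23, edgeR adjusted p = 0.0292) without LFG 3, and the first of these calls was lost with the replicate block. Per length, Nid1 over Nid2 was 7.14, 4.86 and 0.549 in LFG, 4.0, 1.51 and 1.47 in REG and 2.87, 2.06 and 1.97 in hADMSCs-Exo. LFG 3 was the one library in which Nid2 exceeded Nid1.

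Hspg2 (ENSMUSG00000028763, chromosome 4, 137468769 to 137570630, plus strand) encodes perlecan, a heparan sulfate proteoglycan that binds growth factors. Its log2 CPM was 5.07, 5.33 and 3.30 in LFG, 4.57, 4.06 and 3.64 in REG and 3.08, 4.28 and 3.24 in hADMSCs-Exo. hADMSCs-Exo 2 lay within the REG range and the other 2 libraries of that group below it. The log2 fold change was -0.51 against REG (SE 0.36, edgeR adjusted p = 0.657). It ran from -0.99 (without hADMSCs-Exo 2) to -0.22 (without REG 1) when 1 library was left out. Against LFG, Hspg2 had -1.19 in hADMSCs-Exo (SE 0.57, edgeR adjusted p = 0.805) and -0.65 in REG (SE 0.51, edgeR adjusted p = 0.647), and -1.56 (SE 0.35, edgeR adjusted p = 0.0429) and -1.02 (SE 0.27, edgeR adjusted p = 0.0415) without LFG 3, and with the replicate block both calls were lost, the second because its fold change then fell short of the limit.

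Between hADMSCs-Exo and REG, which asks what exosomes added to 4 weeks of recovery, 9 of the 10 genes had a lower fitted level in hADMSCs-Exo and Lama5 a higher one. Their median log2 fold change was -0.63 and ran from -1.47 (Lamb1) to 0.50 (Lama5), while the median of 12337 genes was 0.01 and 48.9% of them were lower. By edgeR's quasi-likelihood test, 0 of the 10 genes were called, that is, had an adjusted p under 0.05 and a log2 fold change beyond 1 in either direction, where 0.00811% of all genes were. DESeq2 called 1, Lamb1, with 0.544% of all genes, and limma with voom and quality weights 0, with 0.0243%. At an unadjusted p under 0.05, 3 genes were lower (Lamb1, Lama4 and Col4a1) and 0 higher, where 4.69% of all genes were lower and 5.34% higher. That count was 5 without REG 3 or hADMSCs-Exo 2 and 2 when any 1 of the other 4 libraries was left out. Lamb1 and Lama4 are also on a pathway list that the study drew from these libraries, so their direction here is not independent evidence. The libraries did not overlap and were lower in hADMSCs-Exo for 3 genes (Lamb1, Lama4 and Nid2), against 7.47% of all genes. Leaving out 1 library moved the median to -0.99 at the lowest (without hADMSCs-Exo 2) and -0.43 at the highest (hADMSCs-Exo 3).

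Between hADMSCs-Exo and LFG all 10 genes were lower in the fit, with a median of -1.56 against -0.06 over 12489 genes, of which 56.9% were lower. None of the 10 passed by edgeR, DESeq2 or voom, by which 0.0%, 0.512% and 0.00801% of all genes did. At an unadjusted p under 0.05, 2 genes, Col4a2 and Col4a1, were lower (3.68% of all genes, with 2.3% higher), a count that was 0 without LFG 1, LFG 2, hADMSCs-Exo 1 or hADMSCs-Exo 3 and 9 without LFG 3, where 15.7% of all genes were lower at that p. With LFG 3 included, the libraries overlapped for all 10 genes, where 5.93% of all genes were without overlap and lower. Without LFG 3, 8 of the 10 genes passed and were lower in hADMSCs-Exo by edgeR's test (Col4a1, Col4a2, Lama2, Lamb1, Lamc1, Nid1, Nid2 and Hspg2), against 4.5% of 12955 genes, with a median of -1.99. With the replicate number as a block as well, which leaves 2 pairs, 5 of these 8 passed (Col4a1, Lama2, Lamb1, Lamc1 and Nid1), against 2.25% of all genes. Col4a2 (-2.66, edgeR adjusted p = 0.0649), Nid2 (-1.28, edgeR adjusted p = 0.0678) and Hspg2 (-1.51, edgeR adjusted p = 0.0536) did not.

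Between REG and LFG, 9 genes were lower in REG and Lama4 higher, with a median of -1.02 against -0.07 over 12517 genes, of which 55.9% were lower. By edgeR 0 of the 10 passed (0.0% of all genes), DESeq2 called 0 (1.91% of all genes), and voom with quality weights called 6 (Nid1, Lama5, Lamc1, Hspg2, Col4a1 and Col4a2) and 10.3% of all genes. At an unadjusted p under 0.05, 0 were lower and 0 higher (6.7% and 4.62% of all genes), and the libraries overlapped for all 10 genes, where 10.0% of all genes were without overlap and lower. Without LFG 3, 7 passed and were lower in REG (Col4a1, Col4a2, Lama5, Lamc1, Nid1, Nid2 and Hspg2), against 6.94% of 12948 genes, with a median of -1.46, and 9 were lower at an unadjusted p under 0.05, as were 19.1% of all genes. The median moved with the LFG library left out, and was -0.53 without LFG 1 and -0.64 without LFG 2, with 0 of the members called in each. With the replicate block and without LFG 3, 6 members passed and were lower, against 7.45% of all genes. The 3 comparisons share libraries, so the values of one are not independent of those of another. With library totals in place of TMM, the median of all genes shifted by 0.06 in hADMSCs-Exo against REG, by -0.12 in hADMSCs-Exo against LFG and by -0.2 in REG against LFG, and the share of all genes that were lower went from 48.9 to 40.0%, from 56.9 to 68.5% and from 55.9 to 71.6%.

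**Figure D3:**
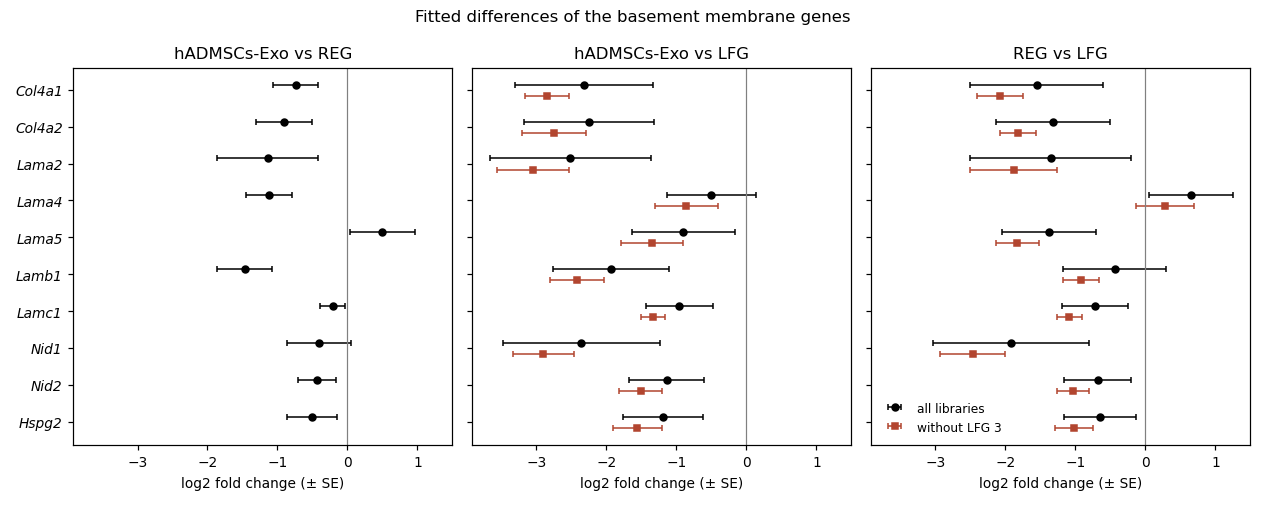
Fitted log2 fold change with its standard error for each gene in the 3 comparisons (first group minus second), from edgeR with all 6 libraries (black circles) and without LFG 3 (red squares, the 2 comparisons with LFG). Lama5 in hADMSCs-Exo against REG (0.50) and Lama4 in REG against LFG (0.65, or 0.28 without LFG 3) are the values right of 0, and the error bar of every gene shortens when LFG 3 is left out.

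Other parts of the basement membrane were taken from a list of 28 further genes, of which 20 had enough counts between hADMSCs-Exo and REG. Of these, 17 were lower in hADMSCs-Exo and 3 higher, with a median of -0.61, and 0 passed the adjusted threshold. At an unadjusted p under 0.05, 5 were lower and 1 higher (4.69% and 5.34% of all genes). Fbln1 (fibulin-1) had the lowest log2 fold change at -1.68, while Lama3, the epithelial laminin chain, had the highest at 0.84. Of 22 tested against LFG, 16 were lower in hADMSCs-Exo (median -0.72) and 13 in REG (median -0.19). At an unadjusted p under 0.05, 4 were lower and 0 higher in hADMSCs-Exo (3.68% and 2.3% of all genes). In REG 2 were lower and 0 higher (6.7% and 4.62% of all genes). Col4a3, a chain of the collagen IV network best known from the kidney, had the lowest value in both, -3.10 and -1.80, or -3.54 and -2.24 without LFG 3. Without LFG 3, 4 more genes had enough counts to be tested (Col4a4, Col4a6, Frem1 and Tinag), were lower in both comparisons and are left out of the counts that follow, since they passed the filter only with LFG 3 left out. Over the other 22 genes the median was -1.10 in hADMSCs-Exo, with 10 lower and 2 higher at an unadjusted p under 0.05 (15.7% of all genes were lower) and 5 that passed and were lower (4.5% of all genes). In REG it was -0.46, with 9 lower and 1 higher (19.1% of all genes were lower) and 3 that passed and were lower (6.94% of all genes).

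Genes for collagen folding, hydroxylation and crosslinking numbered 13, with 12 tested. Between hADMSCs-Exo and REG 5 were lower and 7 higher, with a median of 0.10. At an unadjusted p under 0.05, 2 were lower and 0 higher (4.69% and 5.34% of all genes). Loxl2, a lysyl oxidase that crosslinks collagen IV, had the lowest value (-1.21) and Lox the highest (0.62). Against LFG, 10 of 12 were lower in hADMSCs-Exo (median -1.02), 6 of them at an unadjusted p under 0.05, against 3.68% of all genes. In REG 10 of 12 were lower (median -1.03), 2 of them at an unadjusted p under 0.05, against 6.7% of all genes. None passed the adjusted threshold with all libraries. Without LFG 3, the 12 genes also tested with all libraries are counted, which leaves out Loxl4 in hADMSCs-Exo and Lox in REG. The medians were -0.95 and -1.10. In hADMSCs-Exo 5 passed and were lower and in REG 5, against 4.5% and 6.94% of all genes. Lox was the lowest in hADMSCs-Exo, at -3.54, and in REG it was tested only without LFG 3.

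Of 12 receptors that bind basement membranes, among them integrins, dystroglycan and the discoidin domain receptors, 0 passed in any comparison with all libraries. In hADMSCs-Exo against REG 8 were lower and 4 higher (median -0.28), from Ddr2 at -1.03 to Sdc4 at 0.51. At an unadjusted p under 0.05, 1 was lower and 1 higher (4.69% and 5.34% of all genes). Their medians against LFG were -0.80 in hADMSCs-Exo and -0.63 in REG, and Itga7 was the highest in both, at 0.44 and 0.74. At an unadjusted p under 0.05, 3 were lower and 0 higher in hADMSCs-Exo (3.68% and 2.3% of all genes). In REG 1 was lower and 1 higher (6.7% and 4.62% of all genes). Without LFG 3 the medians were -1.18 and -0.83, and 5 of 12 passed and were lower in hADMSCs-Exo and 2 of 12 in REG, again against 4.5% and 6.94% of all genes.

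The levels of markers of the cells that can make this matrix are given beside those of the members. The 10 stellate cell markers summed to 72.7 to 423 CPM in LFG, 187 to 361 in REG and 85.2 to 239 in hADMSCs-Exo. All 10 had a lower fitted level in hADMSCs-Exo than in REG, with a median of -0.95. At an unadjusted p under 0.05, 4 of them were lower, against 4.69% of all genes. Acta2, smooth muscle actin of activated stellate cells, had the lowest value at -2.60 (SE 0.58, edgeR adjusted p = 0.358), Reln the highest at -0.45, and Ngfr was at 0 in LFG 3. The 5 fibrillar collagens of scar tissue summed to 18.7 to 1200.0 CPM in LFG, 96.0 to 177 in REG and 29.9 to 69.2 in hADMSCs-Exo. All 5 were lower in hADMSCs-Exo than in REG at an unadjusted p under 0.05, against 4.69% of all genes. Their median was -1.19, and 0 passed the adjusted threshold.

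The groups overlapped in the summed levels of endothelial markers. Vascular and capillarized endothelium markers summed to 39.3 to 180.0 CPM in LFG, 85.6 to 176 in REG and 55.3 to 145 in hADMSCs-Exo. Of these, 9 of 9 tested were lower in hADMSCs-Exo than in REG (median -0.51), 2 at an unadjusted p under 0.05, against 4.69% of all genes. Sinusoidal endothelium markers summed to 98.8 to 239, 157 to 439 and 108 to 330, with 9 of 10 lower (median -0.70) and 0 at an unadjusted p. In REG against LFG 8 of these 10 were higher (median 0.86, or 0.61 without LFG 3), and in hADMSCs-Exo against LFG the median was 0.03, or -0.19 without LFG 3. Mean deviations in log2 CPM from the 9-library mean are given for hADMSCs-Exo 1, 2 and 3 in turn. They were -0.99, 0.40 and -0.53 for the vascular markers and -0.89, 0.95 and -1.0 for the sinusoidal markers. The basement membrane genes had -0.58, -0.12 and -1.01. hADMSCs-Exo 2 was the highest of its group in each, as it was for the stellate markers (0.01) and the fibrillar collagens (-0.82). For the cholangiocyte (-0.10), smooth muscle (-0.70), mesothelium (0.17) and macrophage (0.54) markers, hADMSCs-Exo 3 was the highest. In LFG 1 and REG 1 the sinusoidal markers were at 0.10 and 1.31, where the basement membrane genes were at 1.61 and 0.53. Cholangiocyte markers (66.3 to 205, 83.3 to 91.4 and 68.3 to 142 CPM), smooth muscle markers (56.8 to 98.6, 46.5 to 64.0 and 40.0 to 66.0), mesothelium markers (5.54 to 13.2, 2.15 to 3.87 and 3.78 to 5.67) and macrophage markers (127 to 916, 309 to 1030.0 and 568 to 720.0) are given in the same order of groups. In hADMSCs-Exo against REG, 4 of 6 cholangiocyte markers tested were lower (median -0.25). Of the macrophage markers 4 of 8 were lower (median 0.02), and of the mesothelium markers 0 of 3 (median 0.83). Of 5 smooth muscle markers tested, 4 were lower in hADMSCs-Exo than in REG, and 0 passed the adjusted threshold. Cnn1 and Actg2 were among the lower ones but stood at 0 in hADMSCs-Exo 1. They may have been tested only through their counts in REG, so no size is given for them. Myh11 had -1.68 (SE 0.31, edgeR adjusted p = 0.358), Smtn -0.50 and Mylk 0.14. Among the markers listed at 0 were Cnn1 and Actg2 in LFG 3 and hADMSCs-Exo 1, Actg2 in hADMSCs-Exo 2, Tagln in all REG libraries and in hADMSCs-Exo 2 and 3, Cftr in LFG 3 and Muc16 in hADMSCs-Exo 2. The part of these cell types in the members' differences was not tested.

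**Figure D4:**
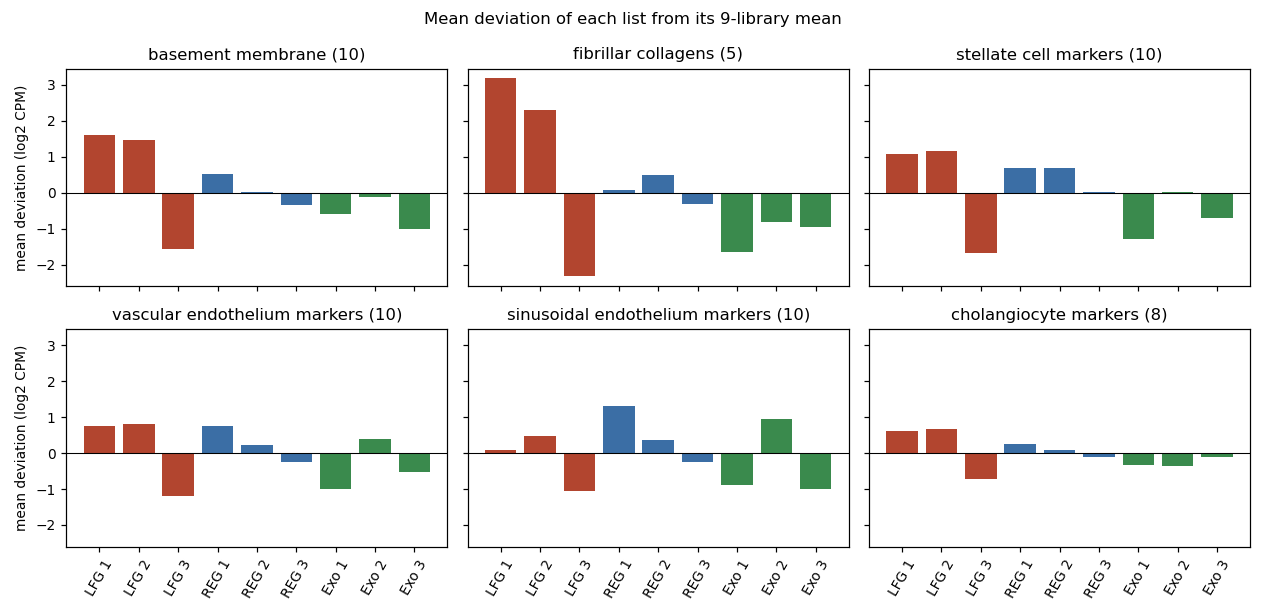
Mean deviation (log2 CPM) of the genes of each list from their 9-library mean, 1 bar per library, for the 10 basement membrane genes, 5 fibrillar collagens and 4 lists of cell type markers; Exo stands for hADMSCs-Exo. LFG 3 is below 0 in all 6 panels (-1.57 for the basement membrane genes, against 1.61 and 1.46 in LFG 1 and LFG 2), and in the sinusoidal endothelium panel REG 1 (1.31) and hADMSCs-Exo 2 (0.95) are the highest bars.

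As a description over 9 libraries that share these groups, each gene was set against the mean of the other 9 members in centred log2 CPM. Pearson's r was highest for Col4a1 (0.99), Lamc1 (0.974) and Col4a2 (0.957) and lowest for Lama5 (0.757) and Lama4 (0.653). Over the 6 REG and hADMSCs-Exo libraries it was 0.989 for Col4a1, 0.96 for Lamc1, 0.92 for Lama4 and 0.0142 for Lama5. Lama4 thus followed the other members among REG and hADMSCs-Exo and Lama5 did not. Outside the 10 genes, the genes closest to the members' mean over 9 libraries were Wls (0.995), Mxra8 (0.987), Pam (0.983), Fbn1 (0.982), Svep1 (0.981), Man1c1 (0.979), Spon1 (0.978) and C1qtnf7 (0.971), of 12760 genes. Over the 6 libraries they were Apold1 (0.991), Wls (0.989), Gpihbp1 (0.986), Clec14a (0.986), Cdkn1c (0.986), Cers4 (0.985), Dctn6 (0.985) and Itpripl2 (0.985). These values rank 12760 genes over 9 or 6 points and carry no test, and Wls is the gene named in both.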

How the data were processed

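Liver RNA had been extracted with Trizol and made into libraries with an NEBNext Ultra kit, sequenced on an Illumina NovaSeq. The submitters' processing notes name cutadapt 1.15, HISAT2 2.0.5, HTSeq 0.9.1, DESeq 1.30.0 and GRCm38. The authors deposited raw counts per gene for 9 libraries and, beside them, FPKM, which equals the counts divided by gene length and library total. The columns read here as hADMSCs-Exo carry a prefix for stem cells and exosomes, and the samples given hADMSCs themselves are not used here. Strand use in counting is not given in the sources used here.

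The test was edgeR's (version 4.0.16, under R 4.3.3: quasi-likelihood, two-sided, TMM, filterByExpr, the 6 libraries of each pair, Benjamini-Hochberg over all genes tested). Calls needed an adjusted p under 0.05 and a log2 fold change of 1 or more in size, the limits in the study's methods. Log2 CPM used TMM over 9 libraries and a prior count of 2. Ratios within a library used counts per gene length, with no pseudocount, and exact permutation tests (scipy 1.17.1, Python 3.11.15). Alternatives were RLE size factors, DESeq2 1.42.0, voom with quality weights (limma 3.58.1), no filter, at least 10 counts in every library, no fold limit, a replicate block, a joint fit of 9 libraries, and each library left out. Library totals only, the replicate block without LFG 3, and the count at an unadjusted p with a library left out, were added later, with the data in view. The script was tested on simulated counts with known changes.

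The members, lists and tests were chosen with earlier results of these data known, and lists were written from general knowledge, so nothing here is independent support. Named beside the 10 members are the lowest or highest genes of a list and the 8 genes most like the members. Some cell type markers at 0 in a library are also named, as are the 4 genes tested only without LFG 3, chosen after their values were seen. The same holds for Lama1, Loxl4, Myh11 and Smtn. Replicate numbers 1 to 3 recur in each group. For hADMSCs-Exo and LFG the deviations of same-numbered libraries correlated by 0.101, 0.308 and 0.18, all over 0.1. The main fits did not treat them as pairs. The replicate number entered only as a block, an alternative run for each comparison. Replicates differed by more than sampling noise (chi-square per gene of 23.4 or more).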

Additional observations from a re-analysis of the deposited data

How the results depend on the processing

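For hADMSCs-Exo against REG the count of members called was 0 in every setting but DESeq2, where it was 1. Against LFG it ran from 0 to 8 for hADMSCs-Exo and from 0 to 7 for REG when 1 library was left out, the highest value in each being the one without LFG 3 and all others 0. With voom and quality weights it was 6 for REG against LFG. The cause was not tested. Median log2 fold changes of the members kept their sign in every setting. Without 1 library they lay at -0.99 to -0.43 (hADMSCs-Exo against REG), -1.99 to -1.19 (hADMSCs-Exo against LFG) and -1.46 to -0.53 (REG against LFG). With library totals only they were -0.56, -1.81 and -1.37. With the replicate number as a block they were -0.64, -1.27 and -0.63 and 0 members were called. With the block and without LFG 3, a fit added later, the calls against LFG were 5 in hADMSCs-Exo and 6 in REG, in place of the 8 and 7 without the block (in REG, Lamc1 and Hspg2 were lost and Lama2 gained). For the pairs not treated as paired, correlations of same-numbered libraries were 0.159, 0.00939 and 0.0336 (hADMSCs-Exo and REG) and 0.415, -0.202 and 0.305 (REG and LFG). Without 1 library, the log2 fold change of Nid1 in hADMSCs-Exo against REG ran from -0.79 to 0.23, that of Lama5 from -0.08 to 0.84, and that of Lama4 against LFG from -0.86 to 0.25, and these 3 genes changed sign. Of the other single-gene values, 401 kept sign and side of the threshold and 33 passed it newly. Of 24 differences in chain ratios, 11 changed sign without 1 library. At 10 counts in every library 9 of the members were tested. Of the depth limits, Lama2 (2 to 175 counts) and Lama4 (10 to 87) carry the largest counting error.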
